A study of Sus scrofa with 297 samples.

Results

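The livers of very lean pigs were compared with those of pigs of middle fat area. The fat area (FA) is the area of the fat layer over the loin muscle at the 13th/14th rib, in cm2, and the loin eye area (LEA) is the cross-section of that muscle. Pigs with an FA of up to 6.5 cm2 made the very lean group (24 pigs) and pigs with an FA from 13 to 15 cm2 the middle group (41 pigs), at any LEA, so that 65 of 297 pigs were compared. The groups were formed from the labelled trait alone and not from expression. All animals were adult German Landrace pigs, a breed kept for meat, whose livers were sampled at slaughter, and no treatment separated the groups. The labels do not give sex, carcass weight, feeding or kinship. Of the remaining pigs, 94 had an FA between the groups, 130 had a larger FA than the middle group, and 8 had no traits and were left out. Each animal is 1 array, and the labels name each animal by its own number.

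FA was 4.88 ± 1.21 cm2 (SD, n = 24) in the very lean group, with a range of 2.4 to 6.5, and 14.11 ± 0.51 cm2 (SD, n = 41) in the middle group, with a range of 13 to 14.9. The group means were thus 9.23 cm2 apart. At the limits, 3 pigs lay at 6.5 cm2 and the next 2 pigs at 6.6 cm2 were outside the very lean group, while the neighbours of the middle group lay at 12.9 and 15.1 cm2. LEA, which the grouping did not use, was 43.62 ± 7.88 cm2 in the very lean pigs and 44.22 ± 6.19 cm2 in the middle pigs. This difference of -0.60 cm2 was smaller than the spread within either group (two-sided permutation test with 100000 resamples, p = 0.747). The ratio of fat to loin area was 0.11 ± 0.03 against 0.33 ± 0.05, which follows from the grouping. The groups thus differed in the fat over the loin and overlapped in the size of the loin.

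**Figure D1:**
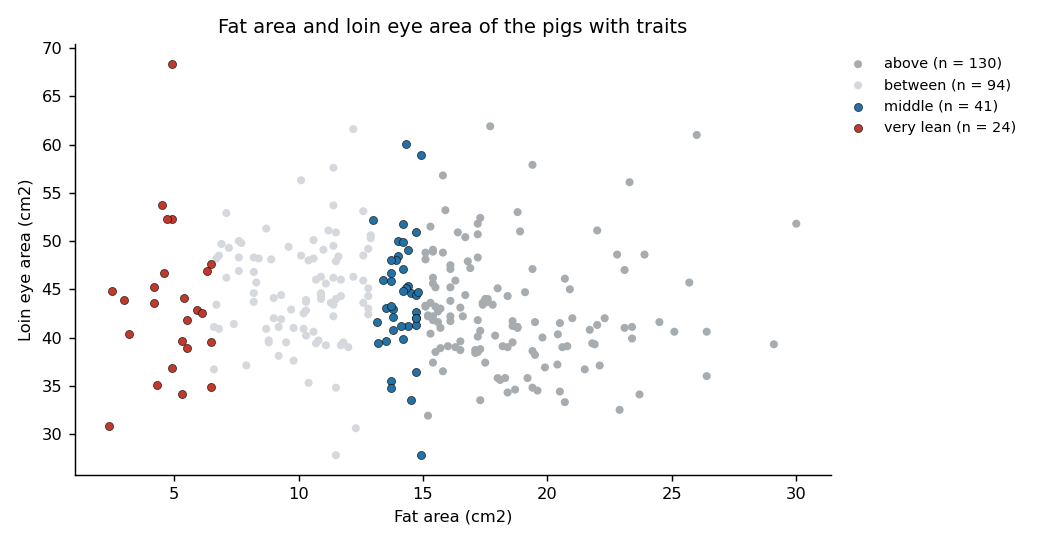
Fat area (x axis, cm2) and loin eye area (y axis, cm2) of the 289 pigs with traits, 1 point a pig, with the very lean group (n = 24) in red, the middle group (n = 41) in blue and other pigs in grey. The red and blue points are separated along fat area and cover a like range of loin eye area, from 30.8 to 68.4 cm2 in the very lean and from 27.8 to 60.1 cm2 in the middle group.

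The liver turns carbohydrate and amino acids into glucose, exports lipid in lipoproteins and makes the acute phase proteins of blood plasma. In pigs the fat tissue, more than the liver, makes the bulk of new fatty acids, and it releases leptin, whose receptor the liver also carries. Cytokines, of which interleukin-6 is the best known, act on hepatocytes through STAT3 and raise acute phase proteins. Questions about a lean and a fatter animal therefore touch lipid synthesis and oxidation, glucose and amino acid metabolism, hormone receptors and the acute phase in this tissue.

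Expression was measured on Affymetrix Snowball arrays, on which a transcript is read by a set of short probes. The deposited values are log2 signals, so that a difference of 1 is a 2-fold change. Without control probes, 47722 probe sets were tested, of which 26426 carried a gene symbol (13755 symbols). Array medians lay between 5.61 and 5.76, and Pearson's r between arrays of the compared pigs was 0.935 to 0.989 with a median of 0.973. Of 10 listed hepatocyte markers 9 were measured, and their levels stood at or above percentile 98.6 of all probe sets. Arrays have no read depth, and their number limits the precision.

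No transcript differed between very lean and middle pigs after adjustment. With limma and Benjamini-Hochberg adjustment over all probe sets, 0 of 47722 (0%) passed an FDR of 5%, and the smallest adjusted p was 0.606. The Wilcoxon rank-sum test called 0 as well, with 1525 at an unadjusted p under 0.05. With limma, 1547 probe sets (3.24%) had an unadjusted p under 0.05, of which 701 (1.47%) were estimated higher and 846 (1.77%) lower in very lean pigs. Even p values would place 2386 probe sets there. At an unadjusted p under 0.001 there were 10, where even p values would give 48. Small p values were thus fewer than under an even spread. The p values of probe sets that share pigs and pathways are not independent.

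The size of the estimates was small throughout. The median difference, very lean minus middle, was -0.0023 on the log2 scale, 48.5% of the probe sets were estimated higher in very lean pigs, and the median size of a difference was 0.0463. Only 29 probe sets differed by over 0.5 in size and 0 by over 1, the largest at 0.872. The 95% interval of a difference reached a median of 0.144 to either side. For 97.3% of the probe sets the whole interval lay within 0.5 of 0, and for 99.9% within 1, which is a 2-fold change. It reached 1 for 34 probe sets, so that these pigs do not bound the difference of those below 2-fold. At a typical probe set, an estimate under 0.144 in size had an interval that held 0, even before adjustment. To pass the FDR over all probe sets a difference must be larger. LAMA5 at 0.27 and HPSE at -0.34 had an adjusted p (limma) of 0.606. True differences well above 0.144 could thus also be missed with 24 against 41 animals.

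**Figure D2:**
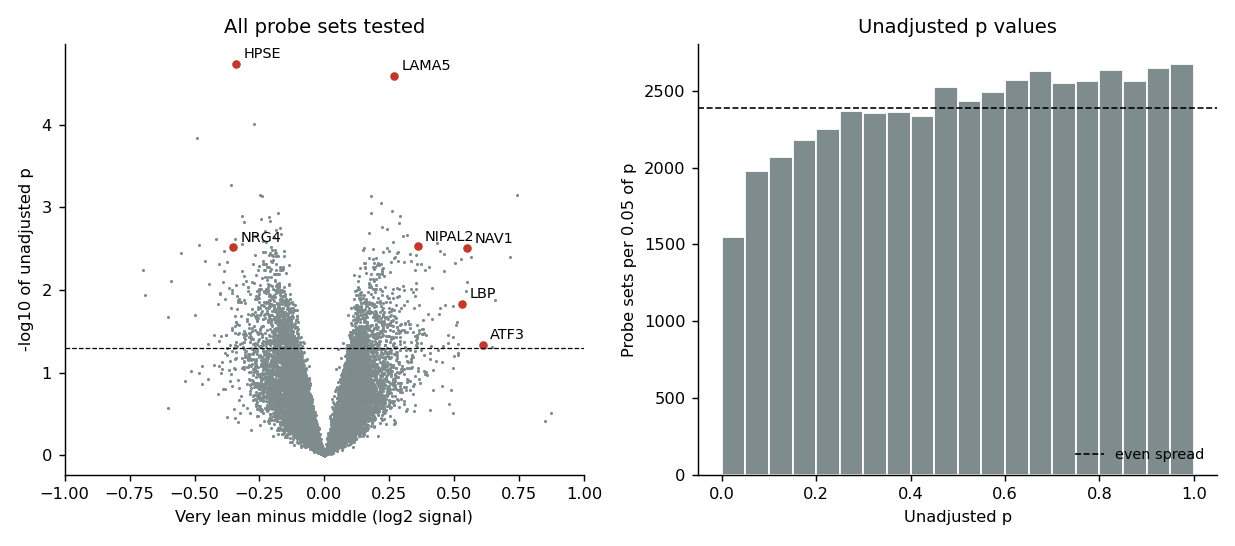
Left, difference between very lean and middle pigs (x axis, log2 signal) and -log10 of the unadjusted p (y axis) for each of 47722 probe sets, with some named genes in red and the dashed line at p = 0.05. Right, number of probe sets per step of p, with the dashed line at an even spread. The points reach at most 0.872 in size, HPSE and LAMA5 have the smallest p, and the bar nearest 0 holds 1547 probe sets against 2386 under an even spread.

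Pigs of the same group differed from each other as much as pigs of different groups did. The median r was 0.973 within the very lean group, 0.973 within the middle group and 0.973 between them. The SD of a probe set had a median of 0.274 in very lean and 0.285 in middle pigs, and for 43.1% of the probe sets the very lean group had the larger SD. The first principal component of the 65 livers took 16.1% of the variance, and the group means lay 0.07 SD apart on it. On the next 4 components, which took 7.7%, 5.35%, 4.28% and 3.09%, they lay 0.17, 0.36, 0.29 and 0.25 SD apart.

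Among genes with a symbol, the 12 smallest p values in each direction were taken as a description of where the estimates were furthest from 0. None of these 24 genes passed, with adjusted p values (limma) from 0.606 to 1, and their differences ranged from 0.15 to 0.55 in size. LAMA5, a laminin chain of basement membranes, led the genes estimated higher in very lean pigs. Its levels were 5.3 at the lowest, 5.62 at the median and 6.33 at the highest in very lean pigs, and 4.93, 5.44 and 5.9 in middle pigs. The ranges overlapped, and 20 of 24 very lean pigs lay above the middle median. The difference was 0.27 (95% interval 0.15 to 0.38, p = 2.54e-05, adjusted p = 0.606). The other LAMA5 probe sets differed by 0.01 and 0.04.

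HPSE, the heparanase that cuts heparan sulfate chains, led the genes estimated lower. Its levels were 2.44, 3.06 and 3.59 (lowest, median and highest) in very lean pigs and 2.95, 3.35 and 4.07 in middle pigs, with 20 of 24 very lean pigs below the middle median. The difference was -0.34 (-0.49 to -0.19, p = 1.81e-05, adjusted p = 0.606). This probe set was dim, at percentile 13.7 of all levels, and the other HPSE probe sets differed by 0.02, 0.09 and -0.01. LAMA5 and HPSE thus each rested on 1 of several probe sets for the gene.

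NAV1, a microtubule-associated protein of migrating neurons, had the widest difference of the 24 genes. It was 0.55 (0.19 to 0.91, p = 0.0031), with levels of 2.35, 4.28 and 5.32 in very lean and 1.75, 3.67 and 4.99 in middle pigs. It lay at percentile 20.6 of level, and its other 5 probe sets differed by at most 0.04 in size. NIPAL2, a putative magnesium transporter, was measured by 1 brighter probe set and differed by 0.36 (0.13 to 0.59, p = 0.00296). Its levels were 7.2, 8.17 and 8.82 in very lean and 6.67, 7.83 and 8.69 in middle pigs, and 18 of 24 very lean pigs lay above the middle median. For both genes the highest very lean pig exceeded the highest middle pig, and the ranges of the groups overlapped over most of their length.

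The other genes estimated higher in very lean pigs differed by 0.15 to 0.29. They were HSPA14, a ribosome-associated chaperone of the HSP70 family (0.18, p = 0.000731), ATP6V1G3, a subunit of the vacuolar proton pump, LTB, the lymphotoxin beta of lymphocytes (0.18), DSE, which makes dermatan sulfate, LRP11 of the low density lipoprotein receptor family, LRRTM2, a synaptic adhesion protein, ELK4, a partner of serum response factor, RHOT1, a mitochondrial transport GTPase, and UBE2V1, a ubiquitin conjugation cofactor. Estimated lower were ACTR1B, a dynactin subunit (-0.31, -0.50 to -0.12), PRKD2, protein kinase D2 (-0.23), PARP3, an enzyme of DNA repair, FMNL3, a formin of the actin skeleton, and the transcription factors EBF3 and TOX. The microRNA probe sets ssc-let-7i (-0.27, p = 0.00219) and MIR450B (-0.32) were among them, as was a probe set under the array's symbol RAGE (-0.25). The symbols LOC396781 and RTN3 are shared by 251 and 59 probe sets, so that their gene is uncertain. Of the 24 genes, 20 had several probe sets, and for 12 of these at least 1 other probe set had the opposite sign. Among them were LTB, whose other 3 probe sets differed by -0.05, -0.05 and -0.03, and HSPA14, PARP3, FMNL3 and TOX with 1 such probe set each. Of the 24 probe sets, 14 lay below the array median of level.

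The pigs outside both groups give a further reading of these 24 genes, because they are other animals. A gene was counted as going the same way when it was estimated higher in very lean pigs and had a negative slope with FA there, or the reverse. In the 94 pigs between the groups 13 of 24 went the same way, in the 130 pigs above the middle group 20 of 24, and 12 did in both sets. Over all probe sets 55.2% went the same way in the pigs between and 56.2% in those above, so that 13 of 24 was near the background. Over the 224 pigs together it was 21 of 24, beside 60.9% of all probe sets, and 7 of the 21 had an unadjusted p under 0.05 there, as did 9.7% of all probe sets. NIPAL2 had a slope of -0.24 per 10 cm2 there (unadjusted p = 0.000252), while LAMA5 and HPSE had slopes of -0.01 each (unadjusted p = 0.733 and 0.752).

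Genes of lipid synthesis did not differ detectably between very lean and middle pigs. Of 19 measured genes for making fatty acids and triglycerides, 7 were estimated higher and 12 lower in very lean pigs, 0 had an unadjusted p under 0.05 (limma), where 3.24% of all probe sets did, and the median difference was -0.032. With number series as a block this median was 0.01. FASN, the fatty acid synthase, had levels of 10.52, 11.99 and 12.98 in very lean and 10.88, 12.02 and 13.12 in middle pigs. Its difference was -0.07 (-0.35 to 0.21, p = 0.621), and 12 very lean pigs lay above and 12 below the middle median. The sign turned in 4 alternatives, among them a block for number series (0.07). ACACA, the acetyl-CoA carboxylase, differed by 0 (-0.31 to 0.32) and SCD, the stearoyl-CoA desaturase, by 0.02 (-0.46 to 0.50). The 17 measured genes of cholesterol synthesis and uptake had a median of 0.065, and the largest difference was that of INSIG1, which restrains sterol synthesis, at 0.18 (-0.15 to 0.50). For 18 of these 19 lipogenic genes the whole interval lay within 0.5 of 0.

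Genes of fat oxidation and amino acid breakdown were mostly estimated lower in very lean pigs, by small amounts. Over all probe sets 48.5% were estimated higher in very lean pigs. Of 25 measured genes of fatty acid oxidation and ketogenesis 5 were estimated higher and 20 lower. Their median was -0.041, and -0.061 with number series as a block. Of the 25, 2 had an unadjusted p under 0.05 (limma) with a lower estimate, beside 1.77% of all probe sets. In the 224 pigs outside both groups 12 of the 25 had a positive slope with FA and 13 a negative one. PHYH, a peroxisomal enzyme that oxidises phytanic acid, had levels of 10.08, 10.91 and 11.47 in very lean and 10.46, 11.17 and 11.57 in middle pigs (difference -0.19, -0.35 to -0.02, p = 0.029). This is 1 of 8 PHYH probe sets, of which 3 had that sign and 1 an unadjusted p under 0.05. HADH, an enzyme of mitochondrial beta-oxidation, differed by -0.08 (p = 0.0429), and 1 of its 2 probe sets had that sign. Of 35 genes of amino acid catabolism and the urea cycle 9 were estimated higher and 26 lower, with a median of -0.03, and of -0.011 with the block. In the 224 pigs 30 of the 35 had a positive slope and 5 a negative one. The share of positive slopes over all probe sets is not given here, for this list or those above. There 13 had an unadjusted p under 0.05 (limma) with a positive slope and 1 with a negative one, beside 9.7% of all probe sets in either direction. Members of a list share pigs and pathways, so these are not independent results. UROC1, an enzyme of histidine breakdown, differed by -0.19 (-0.35 to -0.03, p = 0.0233), and 19 of 24 very lean pigs lay below the middle median. None of these passed the adjustment. PHYH and UROC1 were also named for FA in earlier results of these pigs, so their differences are not independent evidence.

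The 24 genes of glucose release, glycogen and glycolysis had a median of -0.003. PPP1R3C, a subunit that brings protein phosphatase to glycogen, had the widest difference among them at -0.41 (-1.02 to 0.19, p = 0.18). Its levels ran from 5.6 to 11.12 in very lean and from 5.88 to 11.99 in middle pigs, so that its spread within a group was far larger than the difference. The 26 genes of xenobiotic metabolism had a median of -0.024 and the 28 genes of bile acids and lipoproteins 0.004. CYP7A1, the rate-limiting enzyme of bile acid synthesis, differed by 0 (-0.44 to 0.44). Respiratory chain subunits (20 genes, median -0.002), ribosomal proteins (25 genes, -0.017) and circadian clock genes (16 genes, 0.007) lay at the median of all probe sets or close to it.

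Of the hormone axes, NRG4 gave the smallest p. NRG4 is a secreted ligand of ERBB receptors, and its levels were 5.15, 6.04 and 7.09 in very lean and 5.50, 6.41 and 7.36 in middle pigs. The difference was -0.35 (-0.58 to -0.12, p = 0.00301, adjusted p = 1), and 18 of 24 very lean pigs lay below the middle median. The mean was 6.24 in the pigs between and 6.50 in those above, so that the 4 means followed the order of FA. NRG4 was named for FA in earlier results of these pigs, so this order is not independent evidence. Its slope per cm2 (limma) was -0.016 within the pigs between (unadjusted p = 0.473) and 0.033 within those above (unadjusted p = 0.00424). LEPR, the leptin receptor, had levels of 7.59, 8.57 and 9.40 in very lean and 7.10, 8.38 and 9.93 in middle pigs. Its difference was 0.15 (-0.13 to 0.44, p = 0.288), and all of its 8 probe sets were estimated higher in very lean pigs. Within animal numbers from 2800 on the LEPR difference was -0.02. IGF1 differed by 0.13 (-0.22 to 0.48) and GHR, the growth hormone receptor, by -0.06 (-0.26 to 0.14), and the median of the 24 genes of the leptin, growth hormone and IGF axis was -0.002.

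**Figure D3:**
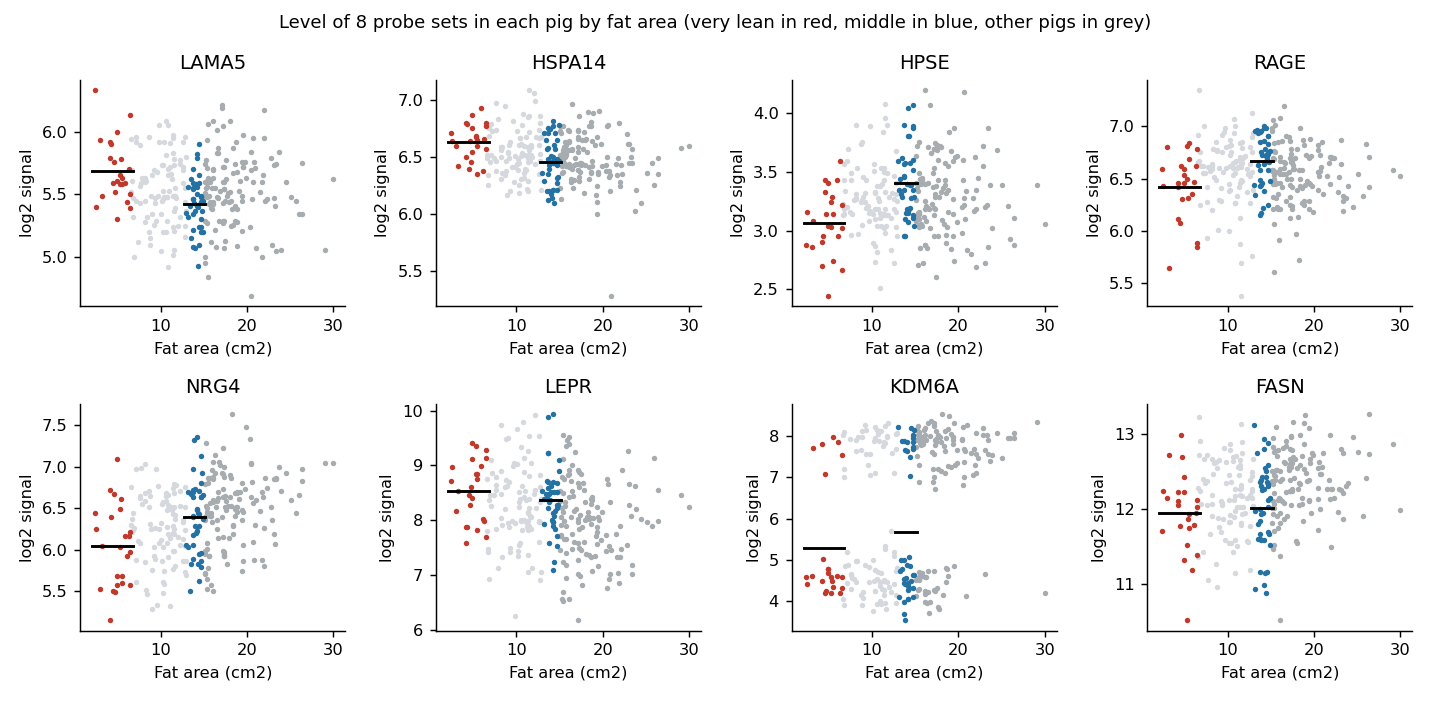
Level (y axis, log2 signal) of 8 probe sets against fat area (x axis, cm2) in each of 289 pigs, with very lean pigs in red, middle pigs in blue and the others in grey. Black bars are the means of the 2 groups, which lie 0.27 apart for LAMA5, -0.34 for HPSE, -0.35 for NRG4 and -0.07 for FASN, inside the spread of the pigs, and the KDM6A probe set shows 2 separate ranges of level in every group.

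Acute phase and stress genes were mostly estimated higher in very lean pigs. Of 24 measured acute phase proteins 18 were estimated higher, where 48.5% of all probe sets were. The median was 0.041, and 0.03 with number series as a block. An unadjusted p under 0.05 (limma) with a higher estimate was found for 3 of the 24, beside 1.47% of all probe sets, and with a lower one for 0. LBP, which binds bacterial lipopolysaccharide, had levels of 10.64, 11.52 and 12.29 in very lean and 7.97, 11.25 and 12.12 in middle pigs. The difference was 0.53 (0.11 to 0.95, p = 0.0146), and the low end of the range was held by middle pigs alone. CRP, the C-reactive protein, differed by 0.27 (0.04 to 0.50, p = 0.0211), with 19 of 24 very lean pigs above the middle median. The LBP mean was 11.51 in very lean, 11.25 in between, 10.98 in middle and 11.19 in above pigs. That of CRP was 12.55, 12.51, 12.28 and 12.40 in the same order. For both, the middle group was the lowest of all groups, so the difference is not particular to very lean pigs. HP, the haptoglobin, differed by 0.03 (-0.02 to 0.08). The list also holds AHSG, ALB, TF, TTR and RBP4, which fall in an acute phase response, and these differed by -0.11, 0.01, 0.02, 0.02 and -0.01. The AHSG probe set was dim, at percentile 10.7 of all levels, with means of 2.92 in very lean and 3.03 in middle pigs. Its value therefore says little about that transcript.

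Of 19 genes that carry cytokine signals toward acute phase synthesis 15 were estimated higher, with a median of 0.08, and of 0.079 with the block. SOCS3, which restrains cytokine receptors, had levels of 7.2, 8.04 and 9.98 in very lean and 6.64, 7.6 and 9.48 in middle pigs (difference 0.38, 0.04 to 0.71, p = 0.0294). STAT3 differed by 0.14 (-0.02 to 0.29, p = 0.0782). Among 22 immediate early genes, which respond within minutes to a stimulus, the median was 0.078, and 0.041 with the block. ATF3 differed by 0.61 (0.01 to 1.21, p = 0.0461), JUNB by 0.46 (p = 0.0481) and FOS by -0.05 (-0.42 to 0.32). MT1A, a metallothionein, differed by 0.65 (p = 0.0493) with levels from 6.67 to 11 in very lean and from 5.58 to 10.69 in middle pigs. The middle group also had a lower mean than the pigs above for SOCS3 (7.78 against 7.93) and ATF3 (7.14 against 7.42). The same held for JUNB (7.64 against 7.84) and MT1A (8.52 against 8.83), but not for STAT3 (11.21 against 11.20). The unfolded protein and stress response had a median of 0.084, with 20 of 24 genes estimated higher. With the block its median was 0.042. Members of a list share pigs and pathways, so a count of signs is not a count of independent results. The single genes here vary widely between animals of 1 group, and none passed the adjustment.

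**Figure D4:**
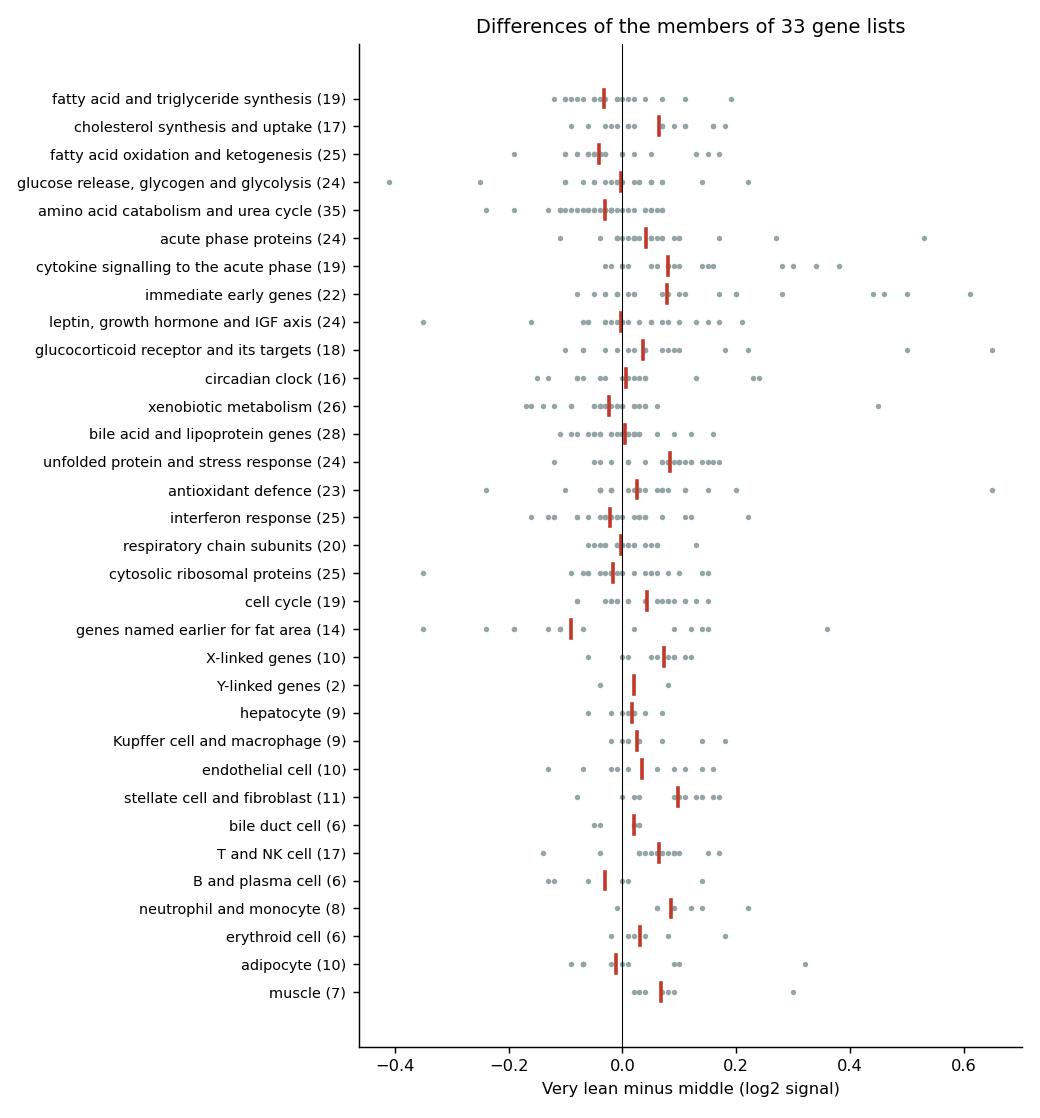
Difference between very lean and middle pigs (x axis, log2 signal) of each measured member (grey points) of 33 gene lists, with the number measured in parentheses and the list's median as a red bar. The medians lie between -0.09 and 0.098, and no point of any list passed the FDR.

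The cell type markers give differences in marker levels and do not bound the share of a cell type. Fewer cells of a type and less RNA per cell cannot be told apart in a whole liver sample. Hepatocyte markers had a median difference of 0.017, and their mean level over the 9 genes ranged from 12.57 to 12.79 in very lean and from 12.58 to 12.81 in middle pigs. Of 11 measured markers of stellate cells and fibroblasts 9 were estimated higher, where 48.5% of all probe sets were, and 0 had an unadjusted p under 0.05. Their median was the highest, at 0.098. With number series as a block this median was -0.019. T and NK cell markers had a median of 0.065 with 15 of 17 estimated higher, among them CD3G, a chain of the T cell receptor complex (0.17, 0.04 to 0.31, p = 0.0139), and KLRD1 was estimated lower (-0.14, p = 0.0434). Kupffer cell, endothelial and neutrophil markers had medians of 0.026, 0.035 and 0.086, which were 0.082, 0.042 and 0.066 with the block. Adipocyte and muscle markers, which would come with adhering tissue, had medians of -0.012 and 0.067. PPARG, a regulator of fat cells, differed by 0.32 (0.07 to 0.57, p = 0.0135) and MYL1, a muscle myosin light chain, by 0.30 (0.08 to 0.53, p = 0.00899). Of the PPARG probe sets 3 of 5 had that sign, and of the MYL1 probe sets 1 of 3. The part of cell makeup in any single value above was not tested.

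Over all 33 lists, 524 of 649 listed genes were measured, 27 of them (5.15%) had an unadjusted p under 0.05, beside 3.24% of all probe sets, and 0 passed the FDR (limma). The 95% interval lay within 1 of 0 for 519 genes and within 0.5 for 478. With number series as a block, 9 of the 33 list medians turned sign, and the medians ran from -0.076 to 0.092. Without it they ran from -0.09 to 0.098, and the lowest belonged to 14 genes named for FA in earlier results of these pigs. The lists not yet described had medians between -0.031 (B and plasma cell markers) and 0.073 (X-linked genes), with antioxidant defence at 0.026, glucocorticoid receptor targets at 0.037 and cell cycle genes at 0.043. The 14 genes named for FA were chosen on animals that include the 65 compared here, so their difference is not independent evidence. Among the 14, 4 had an unadjusted p under 0.05 with a lower estimate (NRG4, GPX3, PHYH and UROC1) and 1 with a higher one (NIPAL2). These genes also count among the 27, so the share of 5.15% is not independent of that choice.

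For interferon response genes 1 very lean liver stood apart from the rest of its group. In 1 very lean pig, with an FA of 4.2 cm2 and an LEA of 43.6 cm2, the mean level of the 25 measured interferon response genes was 10.3. The next very lean pig stood at 8.17, the median at 7.77, and the middle pigs ran from 7.4 to 8.76 with a median of 7.77. This pig had the highest level of all 65 for 20 of the 25 genes. ISG15, an interferon-induced ubiquitin-like protein, was at 12.54 there, against 8.52 in the next very lean pig and 9.12 in the highest middle pig. RSAD2, an antiviral enzyme, was at 11.69 against 7.58 and 9.18, and MX1, an antiviral GTPase, at 12.46 against 9.7 and 10.35. Among the 289 pigs with traits it ranked first, and the next pig, in neither group, had a mean of 10.05. As a whole the array was ordinary, with a median r of 0.972 with the other arrays.

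This animal set the spread of the list and part of its median. The SD of the mean level was 0.57 in very lean pigs with it, 0.24 without it and 0.39 in middle pigs. The median difference of the list was -0.022 with it and -0.141 without it, a setting chosen after seeing the data. With number series as a block and all pigs it was 0.062, so that its direction was not stable. ISG15 differed by 0.07 (-0.35 to 0.49) with and by -0.14 (-0.44 to 0.16) without this pig. IRF1, a transcription factor of the interferon response, was the 1 member with an unadjusted p under 0.05, at 0.22 in both settings. Without this pig 0 probe sets passed the FDR (limma), with 1650 at an unadjusted p under 0.05.

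**Figure D5:**
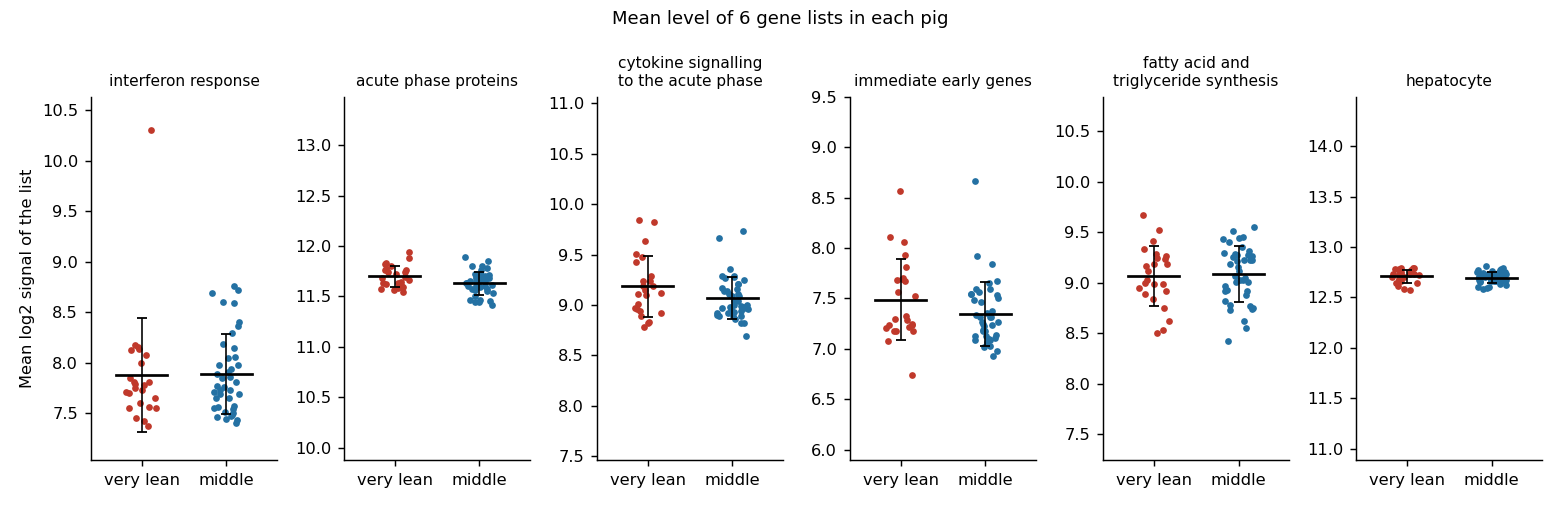
Mean log2 signal (y axis) of 6 gene lists in each very lean (red, n = 24) and middle pig (blue, n = 41), with the group mean as a bar and the SD as whiskers; all panels span the same height. The groups overlap for each list, hepatocyte markers vary least, and 1 very lean pig stands at 10.3 for the interferon response.

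The 224 pigs in neither group showed transcripts that do follow FA, and these were read in the compared pigs. A straight line with FA (limma) gave 0 probe sets past an FDR of 5% (0%) in the 94 pigs between the groups, with 1720 at an unadjusted p under 0.05. It also gave 0 (0%) in the 130 pigs above, with 2200. Fitted as 1 set, a choice made after seeing the data, the 224 pigs gave 86 probe sets (0.18%), 45 rising and 41 falling with FA. Of the 86, 79 went the same way in very lean against middle pigs, where 60.9% of all probe sets did, and 13 had an unadjusted p under 0.05, all of them in the same direction. Of the 1547 probe sets with an unadjusted p under 0.05 between the groups, 74.6% went the same way in those pigs.

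The differences between the groups were smaller than the line would give. Multiplied by the 9.23 cm2 between the group means, the slopes of the 86 probe sets amount to a median difference of 0.199 in size. The observed median size was 0.119, and 75 of the 86 were below the line. For 78 of the 86 the 95% interval of the difference held the value of the line, and for 65 it held both that value and 0. Probe sets that were chosen for a small p carry slopes that tend to be overestimated. The median interval of 0.176 to either side is about as wide as the differences that the line gives.

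Named genes among the 86 belonged to several groups. CELSR2, a receptor of the cadherin family, rose with FA in the 224 pigs by 0.30 per 10 cm2 and differed by -0.11 (-0.28 to 0.06) between very lean and middle pigs. NRG4 rose by 0.28 per 10 cm2, PHYH by 0.19 and GPX3, a secreted glutathione peroxidase, by 0.28, and GPX3 differed by -0.24 (p = 0.046) between the groups. Falling with FA were CEBPB, a transcription factor of the acute phase, STAT3, FGG, the fibrinogen gamma chain, CRP, and ETS2, a transcription factor, which differed by 0.36 (0.04 to 0.69, p = 0.0304) between the groups. CD244, a receptor of natural killer cells, fell by 0.15 per 10 cm2 and differed by 0.19 (0.06 to 0.32, p = 0.00551). SORL1, a sorting receptor, rose with FA there and was estimated at 0.12 (-0.12 to 0.36) between the groups, against the direction of the line.

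The 86 probe sets include sex-linked genes, and sex is not among the labelled traits. KDM6A, a histone demethylase of the X chromosome, is read by 4 probe sets, of which 3 passed in the 224 pigs. The brightest fell by 0.21 per 10 cm2, and the others rose by 0.39 and 1.13, the last being the probe set of widest spread. EIF2S3, ZFX and TXLNG are X-linked as well. That KDM6A probe set of widest spread fell into 2 ranges, with no pig between 5.71 and 6.71. In the upper range were 6 of 24 very lean pigs, 37 of 94 pigs between, 15 of 41 middle pigs and 95 of 130 pigs above. Its levels were 4.19, 4.60 and 7.98 in very lean and 3.53, 4.79 and 8.22 in middle pigs, a difference of -0.37 (-1.16 to 0.41). The compared groups were thus closer to each other in this probe set than the pigs between and above were, at 5.81 and 6.86. With its level as a covariate the 86 became 27, of which 17 were among the 86. That probe set is itself 1 of the 86, so its own slope in this fit carries no information. The other probe sets of the 86 kept their sign. The same covariate left the comparison of very lean with middle pigs at 0 called (limma, 1456 at an unadjusted p under 0.05). Of 13 listed Y-linked genes 2 were measured, EIF1AY at a difference of 0.08 and SRY at -0.04. EIF1AY was bright in every compared pig, from 8.34 to 9.51 in very lean and from 7.82 to 9.51 in middle pigs. A Y-linked transcript is present in males alone, and the study's model held gender, so this probe set may not read such a transcript only. What it reads was not tested. SRY was dim, at percentile 23.4 of all levels. Neither was checked against a known sex, so these differences do not describe the share of each sex in the groups. Sex-linked levels used as covariates were likewise not checked against sex and do not stand for an adjustment for it. The part of sex in the trend was not tested.

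Animal numbers with the same first 2 digits form number series, of which the labels do not say whether they mark a day or a batch. The very lean pigs came from every series but 21 and 26, which held 5 and 3 middle pigs. With number series as a block 0 probe sets passed (1579 at an unadjusted p under 0.05), and the 24 genes of smallest p, which the same pigs had chosen, kept their sign. Of the animal numbers below 2800, 13 were very lean and 25 middle, and from 2800 on 11 and 16. In both parts 0 probe sets passed (limma, 2290 and 2091 at an unadjusted p under 0.05), 23 of the 24 genes had the same sign in both, and 7 had an unadjusted p under 0.05 in both. The 24 genes were chosen for a small p in these same pigs, so this is a description and no support for them. LAMA5 differed by 0.29 and 0.23 in the 2 parts and HPSE by -0.43 and -0.23, while NAV1 differed by 0.78 below 2800 and by 0.20 from 2800 on. The difference itself, tested as an interaction, passed for 0 probe sets (0%), with 2981 at an unadjusted p under 0.05.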

How the data were processed

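The authors normalized the arrays of all pigs by the robust multichip average (RMA) in Expression Console, per the study's methods, and the submitters' processing notes name GCOS 1.1.1. RMA estimates 1 value a probe set over all arrays together and scales them to 1 distribution, which can hide a shift that touches most transcripts. The deposited values are log2 signals, and they were used as they stood. The residuals that the study formed for kinship, components, gender and carcass weight were not formed, because the labels do not give these.

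The main test was limma (lmFit and eBayes) on very lean and middle pigs without covariates, over all probe sets but controls, with Benjamini-Hochberg adjustment and an FDR of 5%. Slopes with FA were fitted in the other pigs. Symbols came from the platform annotation, which can be old. For a gene list, the probe set of highest mean stood for a gene. The named genes are the 12 of smallest p in each direction, the 2 list members of smallest p per list and 6 fixed genes, and others were chosen after their values were seen. The groups, lists and tests were chosen with earlier results of these data known. Lists were described by counts and medians with no test. The fits were tested on simulated data. Replicates are separate animals. Software was R 4.3.3, limma 3.58.1, Python 3.11.15, scipy 1.17.1 and matplotlib 3.10.9.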

Additional observations from a re-analysis of the deposited data

How the results depend on the processing

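No alternative led to a call between very lean and middle pigs. The count stayed at 0 with a filter on dim probe sets, number series as a fixed or random block, LEA, sex-linked levels or 5 principal components as covariates, array weights, trended variances, the Wilcoxon test, a spread shared with all groups, other FA limits, 2 further normalizations, an FDR of 1%, parts of the animal numbers, and each of the 65 pigs left out in turn (lowest and highest count 0). Between 1269 and 2290 probe sets had an unadjusted p under 0.05 over the alternatives that tested every probe set, and between 1375 and 1899 when 1 pig was left out. An FA line over all 289 pigs, chosen after seeing the data, called 226. The line in the pigs between and above together called 86, with 170 under a number series block, 267 with LEA and 27 with the KDM6A level as a covariate, all chosen after seeing the data. Of the 86, only 48 were still called with the block, 83 with LEA and 17 with the KDM6A level. The cause of these shifts was not tested.

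Small estimates that were never called turned sign in some settings. FASN came to 0.07 with a number series block, 0.02 with 5 principal components, 0.19 from animal number 2800 on and 0.03 without number series 21 and 26. SOX9 came to 0 with the block, -0.02 with very lean up to 5.5 cm2 and -0.03 without those series. With 5 components MLXIPL was 0.03, XBP1 0 and EIF1AY -0.01, and EIF1AY was 0 with the X-linked score. SRY was 0.01 with the middle group at 12.0 to 16.0 cm2. From 2800 on TOX was 0.06, LEPR -0.02, SMC1A -0.02, EIF1AY -0.10, FGB -0.04 and COL3A1 -0.06. Below 2800 ANXA4 was 0.20, ALAS2 -0.06 and HBB -0.10. Arrays carry no depth, and 24 very lean pigs limit the precision.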

Other observations

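Of the 86 probe sets that followed FA in the 224 pigs of neither group, 56 carried a symbol. Among the unnamed ones, 3 had the widest spread of the 86 in the compared pigs. The widest of these, SNOWBALL_037083_st, had levels of 2.92, 11.65 and 12.28 (lowest, median and highest) in very lean and 2.82, 11.52 and 12.41 in middle pigs. Its difference of 0.85 had a 95% interval from -1.07 to 2.77, so that these pigs leave a large difference in either direction inside the interval. Its means were 9.62 in very lean, 8.76 in middle, 8.53 in between and 5.79 in above pigs. This is the reverse order of the shares of pigs in the upper KDM6A range. Whether it splits the same pigs as that KDM6A probe set was not tested. The largest difference of the whole comparison, 0.872, belonged to another of them, SNOWBALL_023078_st, with an interval from -0.82 to 2.57. The files and the platform annotation used here give these probe sets no gene.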
